A study of Mus musculus with 6 samples.

Results

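Genes of the MHC class I antigen presentation pathway were followed in RAW 264.7 macrophages treated with mica fine particles (MFP). The group comprised 10 of the 19057 genes named on the array: the class I heavy chains H2-K1, H2-D1, H2-Q6, H2-Q7, H2-Q8 and H2-T23, the light chain B2m, and the peptide transporter and loading genes Tap1, Tap2 and Tapbp. They were chosen by name, and every probe of the array annotated to them by current or older symbol was taken, 23 of 45281 probes. Of these, 16 probes belonged to heavy chains, 3 to B2m and 4 to Tap1, Tap2 and Tapbp. The signal of 21 member probes was above the array background (detection p under 0.05) on all 6 arrays, as for 14091 probes of the whole array. Those 21 were 15 heavy chain probes, 2 B2m probes and the 4 probes of Tap1, Tap2 and Tapbp. The remaining H2-K1 probe, ILMN_2634603, was detected on some arrays only, and the remaining B2m probe, ILMN_2670561, on none.

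RAW 264.7 is a mouse monocyte macrophage line that arose from a tumour induced by Abelson leukemia virus in a BALB/c mouse. MFP is mica, a sheet silicate mineral, ground to a fine powder. Cells in RPMI medium with a low serum content received 100 μg/mL of MFP and were collected at 0, 12 and 48 h, and their RNA was read on Illumina beadchips, 2 arrays per time point. The labels give MFP for the 0 h cells too, whereas a figure legend of the study calls them nontreated. All samples came from 1 cell line. No cells kept for 12 or 48 h without MFP were analysed here, so that the effects of MFP and of time in culture cannot be told apart, and every comparison below with 0 h uses the same 0 h arrays.

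Whether replicate arrays stand for separate cultures is not given in the sources used here, so the p-values reflect array-to-array spread that may be technical. Between 16176 and 17155 probes were detected per array. Of 9 macrophage marker genes with a probe, 8 were detected on all arrays. T cell markers (6 genes) and B cell markers (3 genes) were detected on no array, and no dendritic cell or fibroblast marker (5 genes each) on all 6. Of 5 epithelial markers only Cdh1 was detected on all 6 arrays. The arrays fell into 2 sets, each with 1 array of every time point, within which the deposited normalized values had the same distribution. That the sets were normalized separately is inferred from this. The study names quantile normalization only, and what the sets stand for is not given. Set 1 held 0 h replicate 1, 12 h replicate 2 and 48 h replicate 2, and set 2 the other arrays. In bulk RNA, a change in the share of cells that express a gene and a change in RNA per cell cannot be told apart.

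MHC class I molecules display peptides from inside the cell to CD8 T cells. Proteasomes cut proteins into peptides, the TAP transporter, a dimer of Tap1 and Tap2, pumps them into the endoplasmic reticulum, and tapasin (Tapbp) holds empty heavy chain and β2-microglobulin (B2m) next to the transporter until a fitting peptide binds. H2-K1 and H2-D1 encode classical heavy chains, which present to cytotoxic T cells. H2-Q6, H2-Q7, H2-Q8 and H2-T23 encode non-classical ones, and H2-T23 (Qa-1) presents leader peptides to NKG2A receptors of natural killer cells. Class I transcription is known to be driven by NF-κB at an enhancer κB site, by interferon regulatory factors at an interferon-stimulated response element (ISRE), and by NLRC5 with RFX, CREB/ATF and NF-Y factors at a promoter module that holds a CRE core and a CCAAT box.

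The promoters are shown because the known elements can be read in them. Whether these elements bear on how far a member moved was not tested. They were taken from RefSeq (mouse build GRCm38.p6), in which 8 of the 10 genes matched by symbol and H2-Q8 and Tap2 did not. The reference is the C57BL/6J strain, whereas RAW 264.7 came from a BALB/c mouse. The stretches are thus of another strain, and the haplotype and bases of the line can differ. Each stretch below holds the 200 bases before the first listed start site, 5′ to 3′ on the gene's own strand. Capitals mark matches on either strand. The κB letters searched were GGGNNTTNC. For the ISRE they were GAANNGAAA and GAAANNGAA, and for the CRE core TGACG. The CCAAT box was searched by the letters of its name. The H2-K1 stretch is chr17:34000348-34000547 on the minus strand, that of H2-D1 is chr17:35262894-35263093 on the plus strand, and that of H2-Q7 is chr17:35438955-35439154 on the plus strand. The H2-T23 stretch is chr17:36032702-36032901 on the minus strand, and that of B2m is chr2:122147487-122147686 on the plus strand. The Tap1 stretch is chr17:34187356-34187555 and that of Tapbp is chr17:33919278-33919477, both on the plus strand.
H2-K1: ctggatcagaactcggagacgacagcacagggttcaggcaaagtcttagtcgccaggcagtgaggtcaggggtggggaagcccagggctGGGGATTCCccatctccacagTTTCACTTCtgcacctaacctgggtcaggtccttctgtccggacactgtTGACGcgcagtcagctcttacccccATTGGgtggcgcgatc
H2-D1: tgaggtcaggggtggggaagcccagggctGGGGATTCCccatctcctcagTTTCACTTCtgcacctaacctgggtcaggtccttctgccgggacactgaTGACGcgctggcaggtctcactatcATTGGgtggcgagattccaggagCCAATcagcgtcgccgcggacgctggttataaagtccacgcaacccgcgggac
H2-Q7: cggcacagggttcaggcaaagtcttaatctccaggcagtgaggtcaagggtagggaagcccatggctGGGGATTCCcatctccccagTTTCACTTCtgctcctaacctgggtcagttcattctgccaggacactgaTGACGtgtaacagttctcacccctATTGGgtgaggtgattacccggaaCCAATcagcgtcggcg
H2-T23: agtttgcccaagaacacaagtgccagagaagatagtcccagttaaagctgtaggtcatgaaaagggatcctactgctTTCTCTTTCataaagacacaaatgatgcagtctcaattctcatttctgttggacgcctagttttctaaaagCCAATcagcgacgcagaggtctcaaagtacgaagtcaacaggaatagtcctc
B2m: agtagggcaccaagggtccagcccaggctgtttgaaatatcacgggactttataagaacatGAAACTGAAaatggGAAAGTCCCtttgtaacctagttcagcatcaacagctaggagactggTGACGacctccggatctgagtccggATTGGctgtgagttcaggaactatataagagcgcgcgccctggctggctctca
Tap1: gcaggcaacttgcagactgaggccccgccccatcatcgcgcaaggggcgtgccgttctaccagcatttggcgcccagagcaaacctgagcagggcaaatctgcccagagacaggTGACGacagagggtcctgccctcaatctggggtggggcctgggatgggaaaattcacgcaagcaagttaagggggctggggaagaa
Tapbp: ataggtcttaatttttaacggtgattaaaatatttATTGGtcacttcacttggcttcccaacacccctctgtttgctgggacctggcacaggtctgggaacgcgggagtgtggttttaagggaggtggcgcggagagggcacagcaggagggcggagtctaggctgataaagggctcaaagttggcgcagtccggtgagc

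Motifs were counted over the full window of 300 bases, from 250 before to 50 after the start. The κB letters were in 15.2%, the ISRE letters in 14.8%, the CRE core in 20.8% and the CCAAT box in 37.4% of all 32851 mouse promoters of the table. All 4 classes stood together in 56 promoters (0.17%), of 54 genes, among them H2-K1 (with both of its listed starts), H2-D1, H2-Q7 and B2m. H2-M2 and H2-Q4, which are not members, were among them too. The letters had been chosen with the members' promoters in view, so the members' place in this count is a description without a test. The κB and ISRE matches of H2-K1, H2-D1 and H2-Q7 had the same letters, GGGGATTCC and TTTCACTTC. From the first base of κB to that of ISRE there were 21 bases in H2-K1, H2-D1 and H2-Q6 and 20 in H2-Q7. The order was turned in B2m, with the ISRE letters upstream of κB, while the CRE core and the reverse CCAAT box lay 25 bases apart, start to start, as in H2-K1 and H2-D1. H2-Q6, not printed, held κB, ISRE and CCAAT matches. H2-T23 held an ISRE and a CCAAT match, Tap1 a CRE core and a CCAAT box, and Tapbp CCAAT boxes only. A match is a description of letters and no evidence that a factor bound there.

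**Figure D1:**
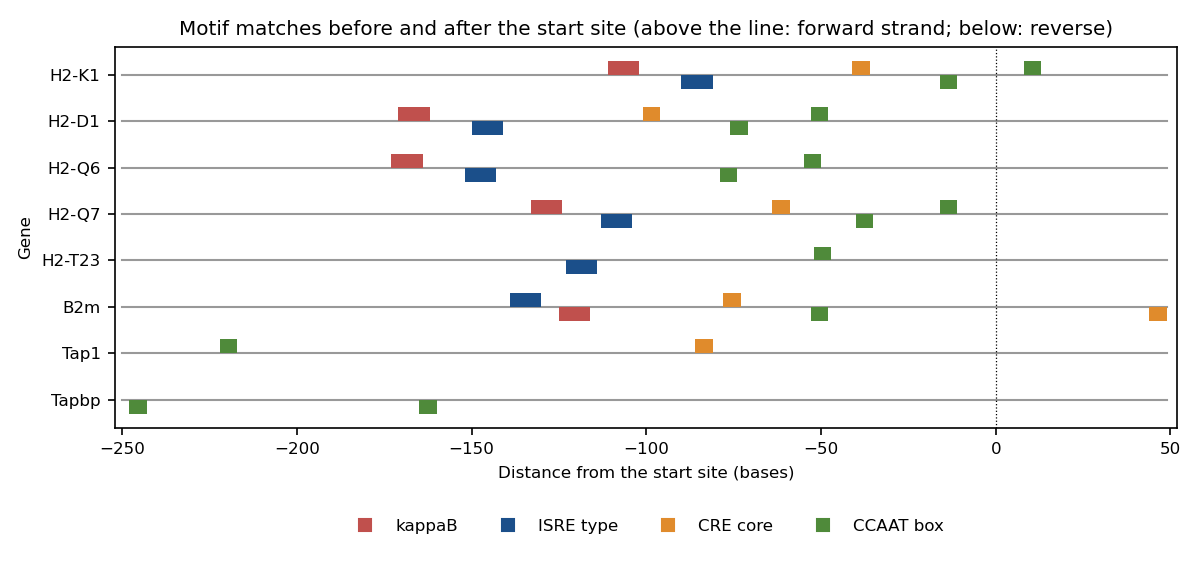
Positions of motif matches relative to the start site (x axis, bases) in the 8 promoters with a sequence, drawn above the line for the forward and below it for the reverse strand. κB and ISRE matches lie 20 or 21 bases apart in H2-K1, H2-D1, H2-Q6 and H2-Q7, are in the other order in B2m, and κB is not matched in H2-T23, Tap1 or Tapbp.

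At 48 h, 20 of the 21 detected member probes rose against 0 h and none fell (limma, adjusted p under 0.05 over all 14091 probes). Of all probes tested, 25% rose and 25.9% fell. All 15 heavy chain probes, both B2m probes, Tap1, Tap2 and 1 of the 2 Tapbp probes were among them. The heavy chain probes rose by a median of 1.79 on the log2 scale, the B2m probes by 0.79 and the 4 transporter and tapasin probes by 0.65, while the median of all probes was -0.00. A rise of at least 2-fold was seen on 14 member probes, all of them heavy chains, against 5.01% of all probes. The study had listed 6 of the heavy chain probes for a change of more than 2-fold on these same arrays, so that their count is no independent evidence. The other 9 heavy chain probes all rose, 8 of them at least 2-fold, with a median of 1.37. They belong to the same genes and were read on the same arrays, so they are no independent evidence either. Both 48 h arrays lay above both 0 h arrays on 21 of 21 member probes, as they did on 36.8% of all probes.

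Of the classical heavy chains, H2-K1 had log2 signals of 10.92 and 11.09 (0 h), 11.70 and 11.30 (12 h) and 13.24 and 12.58 (48 h) on probe ILMN_2795520. The 48 h arrays stood above all others without overlap. The rise at 48 h was 1.91 ± 0.22 (log2 fold change ± SE; 3.76-fold, limma adjusted p = 0.000205). The other detected H2-K1 probe, ILMN_2588139, which was dim (percentile 17.3 of mean signal), read 7.23 and 7.50 (0 h), 7.35 and 7.41 (12 h) and 8.14 and 8.24 (48 h). It rose as well at 48 h, by 0.82 ± 0.11 (adjusted p = 0.000494), less than the brighter probe of the same gene, and it was the 1 heavy chain probe under 2-fold.

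H2-D1 was measured by 4 probes. Probe ILMN_2944011 gave 8.22 and 8.49 (0 h), 8.63 and 8.72 (12 h) and 10.36 and 10.51 (48 h). The 0 h and 12 h arrays lay close together, and the 48 h arrays stood well above them, with a rise of 2.08 ± 0.11 (4.23-fold, adjusted p = 6.55e-06), the largest of any member probe. Probe ILMN_2462745, the brightest of H2-D1, gave 13.36 and 13.61 (0 h), 13.74 and 13.38 (12 h) and 14.93 and 14.71 (48 h). Its 12 h arrays overlapped those of 0 h, and it rose by 1.34 ± 0.15 at 48 h (adjusted p = 0.000181). The remaining H2-D1 probes rose by 1.82 ± 0.15 and 1.93 ± 0.12 at 48 h.

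The non-classical H2-Q genes moved the same way at 48 h. H2-Q6 gave 10.74 and 10.95 (0 h), 11.51 and 11.11 (12 h) and 12.99 and 12.48 (48 h) on probe ILMN_2675337, a rise of 1.89 ± 0.19 at 48 h (adjusted p = 0.000108). H2-Q7 gave 9.16 and 8.90 (0 h), 9.33 and 9.65 (12 h) and 11.01 and 10.95 (48 h) on probe ILMN_2924419, a rise of 1.95 ± 0.13 (adjusted p = 1.7e-05). Both genes were ordered in time on these probes, with no overlap between time points. The other probes rose less, by 1.37 ± 0.21 for H2-Q6 and 1.04 ± 0.14 for H2-Q7. H2-Q8 rose by 1.37 ± 0.17 on probe ILMN_2771182 and by 1.56 ± 0.34 on probe ILMN_2951592 (adjusted p = 0.00574). Probe ILMN_2951592 of H2-Q8 had the widest spread of the members, with 9.16 and 9.64 (0 h), 9.96 and 9.02 (12 h) and 11.36 and 10.57 (48 h), and without 0 h replicate 1 its rise was 1.31 with an adjusted p of 0.0507.

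Without a block, H2-T23 was the 1 member whose probes all rose already at 12 h. When the fit included array set, both H2-Q6 probes (limma adjusted p = 0.00694 and 0.000632) and the Tap2 probe (adjusted p = 0.0124) also passed at 12 h. Probe ILMN_1223179 gave 8.84 and 8.62 (0 h), 9.40 and 9.66 (12 h) and 10.74 and 10.66 (48 h). Each time point stood apart from the one before it, with a rise over 0 h of 0.81 ± 0.12 after 12 h (adjusted p = 0.0046) and of 1.97 ± 0.12 after 48 h (adjusted p = 1.01e-05). The other probes of H2-T23, ILMN_2777471 and ILMN_2777474, gave nearly the same values as each other and rose by 0.49 at 12 h (adjusted p = 0.0317 and 0.0173). Both rose by 1.79 at 48 h. The 12 h call held on ILMN_1223179 with any 1 array left out, and was lost on ILMN_2777471 without any 1 of the 0 h and 12 h arrays (adjusted p up to 0.154 by limma) and on ILMN_2777474 without 0 h replicate 1 or either 12 h array (up to 0.0998). The heavy chain genes are close copies of each other, the probe sequences were not used here, and cross-hybridization between members was not tested, so the signal of a single heavy chain gene is uncertain.

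B2m, whose product pairs with every heavy chain named here, had log2 signals of 14.44 and 14.44 (0 h), 14.65 and 14.63 (12 h) and 15.33 and 15.17 (48 h) on probe ILMN_1216746. The rise at 48 h was 0.81 ± 0.092 (1.75-fold, adjusted p = 0.000208). The other probe, ILMN_2739999, gave 14.23 and 14.44 (0 h), 14.57 and 14.21 (12 h) and 15.26 and 14.97 (48 h), a rise of 0.78 ± 0.15 (adjusted p = 0.00317). At 12 h this probe overlapped 0 h. Both probes were at the top of the range, at percentiles 99.2 and 99.1 of mean signal, and between 29.4% and 58.9% of the highest signal of their array. Whether bead saturation narrowed the change of B2m was not tested.

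Tap1 gave 8.47 and 8.31 (0 h), 8.52 and 8.62 (12 h) and 9.21 and 9.37 (48 h), a rise of 0.90 ± 0.10 at 48 h (adjusted p = 0.000228). Tap2 gave 9.60 and 9.54 (0 h), 9.84 and 9.86 (12 h) and 10.59 and 10.49 (48 h), a rise of 0.97 ± 0.089 (adjusted p = 6.8e-05). The transporter subunits thus stood highest at 48 h on both arrays, each just under 2-fold. Tapbp changed least. Probe ILMN_3155492 of Tapbp gave 7.83 and 7.76 (0 h), 8.14 and 8.21 (12 h) and 8.03 and 8.31 (48 h), so that 12 h and 48 h overlapped. The difference from 0 h was 0.38 ± 0.11 at 12 h (adjusted p = 0.0553), with a rise of 0.37 ± 0.11 at 48 h (adjusted p = 0.0238). That call was lost without either 0 h array or without 48 h replicate 2 (adjusted p = 0.0637, 0.115 and 0.156). Probe ILMN_1226819 gave 8.00 and 8.11 (0 h), 8.43 and 8.04 (12 h) and 8.70 and 8.22 (48 h), a difference of 0.40 ± 0.18 at 48 h that did not pass (adjusted p = 0.0950). The 48 h arrays of this probe lay far apart: the difference was 0.16 without 48 h replicate 1 (adjusted p = 0.479) and 0.64, past the threshold, without 48 h replicate 2 (adjusted p = 0.0136).

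**Figure D2:**
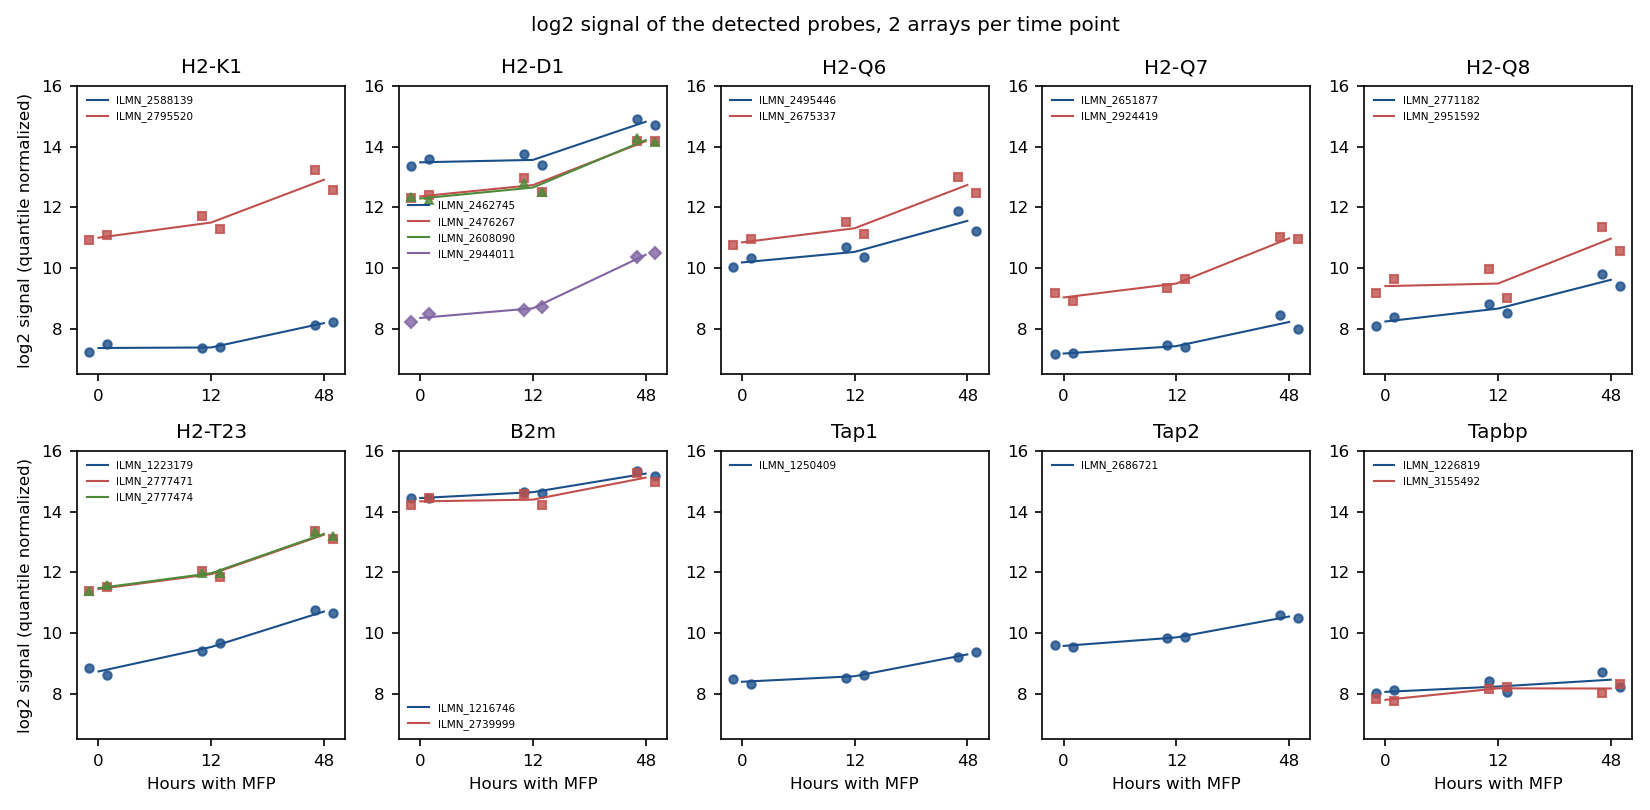
Quantile-normalized log2 signal (y axis) of the 21 detected member probes at 0, 12 and 48 h (x axis, evenly spaced), with 1 point per array and lines through the means of the 2 arrays of a time point. Heavy chain probes climb mainly between 12 and 48 h, B2m, Tap1 and Tap2 less, and the Tapbp probes stay between 7.76 and 8.70.

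With the array set as a block, all 21 member probes rose at 48 h (32.2% of all probes rose). Within set 1 the heavy chain probes differed by a median of 1.72 at 48 h against 0 h, and within set 2 by 1.76. All 15 were above 0 in both sets, as were 7024 (set 1) and 7003 (set 2) of all 14091 probes. On the deposited normalized table without that block, 13 of the 21 passed at 48 h, all of them heavy chains, with a median of 1.79 for the 15, and with the block all 21 passed on that table too. Macrophage markers moved at the same time: 4 of 8 rose at 48 h (25% of all probes), Adgre1 by 1.70 ± 0.11, Fcgr1 by 1.68 ± 0.093, Lyz2 by 1.11 ± 0.098 and Itgam by 0.84 ± 0.12. Csf1r fell by 0.88 and Cd14 by 0.48. The summed signal of the macrophage list spanned 39702 to 61804 at 48 h and 29173 to 47996 at 0 h, and its part in the class I result was not tested.

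At 12 h, few members had passed. The probes of H2-T23 were the 3 of 21 that rose against 0 h and 0 fell, while 8.73% of all probes rose and 7.82% fell. The median log2 fold change of the heavy chain probes was 0.37, that of B2m 0.13 and that of the transporter and tapasin probes 0.23, against -0.02 for all probes. All 21 member probes had a fold change above 0, as had 6457 of all 14091 probes. Both 12 h arrays lay above both 0 h arrays on 16 of the 21, as they did on 26.4% of all probes. No member probe reached 2-fold, as 1% of all probes did with a passing rise. With the array set as a block, 13 of 21 passed at 12 h, namely 11 heavy chain probes, Tap2 and 1 Tapbp probe, against 17.7% of all probes. Within set 1 the median of the heavy chain probes was 0.37 and within set 2 it was 0.43, with 14 of 15 above 0 in each. Of all 14091 probes, 6604 were above 0 within set 1 and 6490 within set 2, with a median of -0.02 in each. Without 0 h replicate 1 the count at 12 h was 1 of 21, and without 48 h replicate 1 or without 48 h replicate 2, each of which changes only the estimate of the spread and the normalization, it was 5.

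Between 12 h and 48 h, 19 of 21 member probes rose (18.9% of all probes) and 0 fell (also 18.9%), 12 of them at least 2-fold (2.31% of all probes). These 19 were the 15 heavy chain probes, both B2m probes, Tap1 and Tap2. The step was 1.76 ± 0.11 for H2-D1 on probe ILMN_2944011 (adjusted p = 3.04e-05), 0.61 ± 0.092 for B2m on probe ILMN_1216746 and 0.72 ± 0.10 for Tap1. The Tapbp probes differed by 0.22 ± 0.18 and -0.01 ± 0.11, and neither passed (adjusted p = 0.363 and 0.978).

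**Figure D3:**
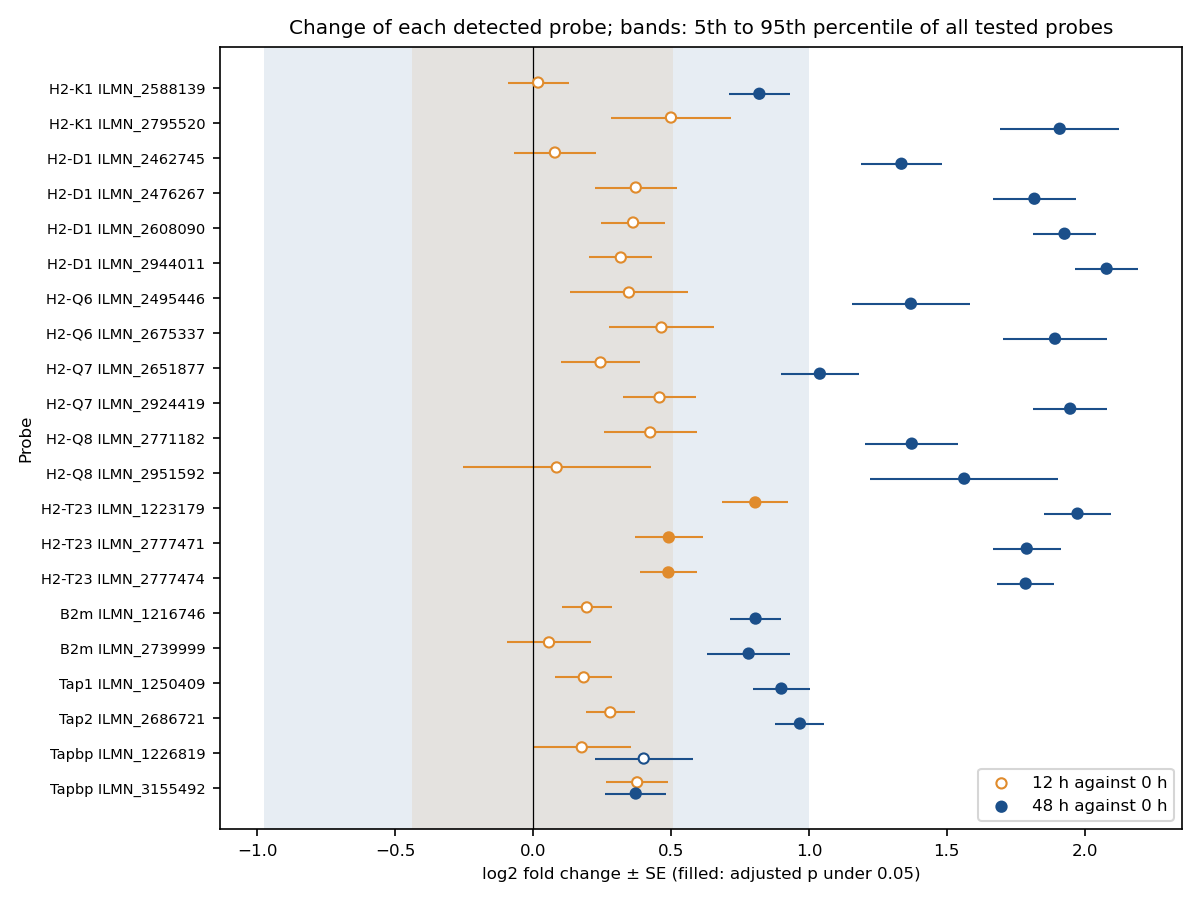
log2 fold change ± SE (x axis) of each detected member probe (y axis) at 12 h and at 48 h against 0 h, filled where the adjusted p was under 0.05, over bands from the 5th to the 95th percentile of all tested probes. At 48 h the band ends at 1.0, and 14 of 15 heavy chain probes lie beyond it while B2m, Tap1, Tap2 and Tapbp lie inside; at 12 h only H2-T23 is filled.

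To compare the heavy chains with the light chain directly, the log2 signal of B2m (probe ILMN_1216746) was subtracted on each array. At 48 h, 13 of 15 heavy chain probes were higher relative to B2m than at 0 h, by limma over all other probes, against 3.94% of all probes. The study had listed the heavy chain genes for a change of more than 2-fold on these same arrays. Their excess over B2m, or over Tap1 and Tap2 below, is thus no independent evidence. Each difference also holds the same values of the reference probe, so the error of that probe is shared by all tests. The intervals and adjusted p-values relative to it can thus look more certain than 2 arrays per time point allow. The median excess over B2m was 0.98 and the range 0.01 to 1.27. H2-D1 exceeded B2m by 1.27 on probe ILMN_2944011 (95% interval 0.97 to 1.58) and by 0.53 on probe ILMN_2462745 (0.22 to 0.83). H2-K1 exceeded it by 1.10 on probe ILMN_2795520 (0.75 to 1.46), and H2-T23 by 1.17 on probe ILMN_1223179 (0.87 to 1.46). The exceptions were the dim probes of H2-K1 (ILMN_2588139, 0.01, interval -0.28 to 0.31) and H2-Q7 (ILMN_2651877, 0.23, interval -0.05 to 0.52, adjusted p = 0.113). With normexp background correction, which widens the changes of dim probes, all 15 were higher, and with the other B2m probe 13 of 15 were.

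The transporter did not part from B2m beyond the spread. Tap1 differed from B2m by 0.09 at 48 h (interval -0.20 to 0.39) and Tap2 by 0.16 (interval -0.10 to 0.43). Tapbp was lower relative to B2m at 48 h than at 0 h on both probes, with differences of -0.41 (interval -0.73 to -0.08, adjusted p = 0.0192) and -0.43 (interval -0.74 to -0.13, adjusted p = 0.0106). Of all probes, 84.5% were lower relative to B2m. Both calls of Tapbp were lost with the other B2m probe (adjusted p = 0.151 and 0.122). Set against Tap1 in the same way, a comparison chosen after seeing the data, 9 of 15 heavy chain probes were higher at 48 h (3.15% of all probes), with a median of 0.89. Set against Tap2, also chosen after seeing the data, 11 of 15 were higher (2.92% of all probes), with a median of 0.82. At 12 h, 1 of 15 heavy chain probes was higher relative to B2m (3.89% of all probes), ILMN_1223179 of H2-T23 by 0.61 (interval 0.32 to 0.91, adjusted p = 0.0053). That call too was lost with the other B2m probe (limma adjusted p = 0.102).

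**Figure D4:**
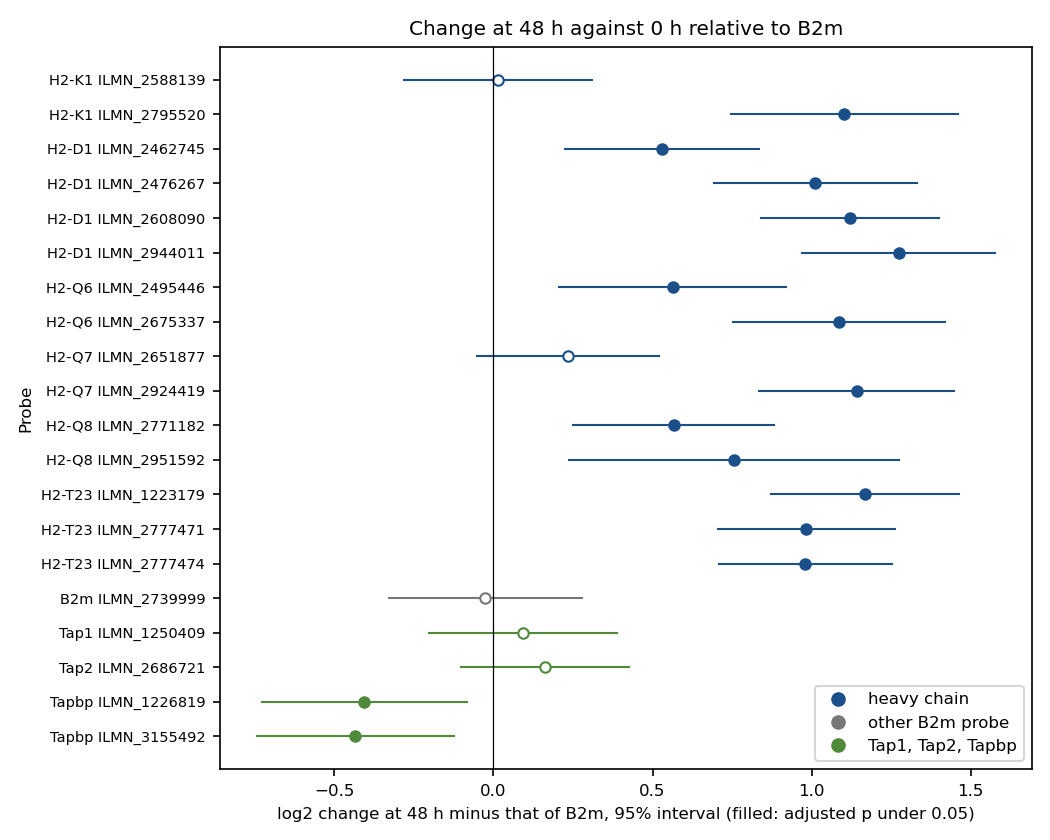
Change at 48 h against 0 h minus that of B2m (x axis, log2, with 95% intervals) for the other 20 detected member probes (y axis), filled where the adjusted p was under 0.05. Of 15 heavy chain probes, 13 are filled to the right of 0, Tap1 and Tap2 span 0, and the Tapbp probes lie to its left at -0.41 and -0.43.

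Other class I heavy chains of the H2 complex were mostly not detected. Of 20 such genes 15 had an annotated probe, 9 of them were detected on no array and 2 on all arrays. Both of these rose at 48 h, as 25% of all probes did. H2-Q5 rose by 1.63 ± 0.15 (limma adjusted p = 7.3e-05). H2-M3, which presents formylated peptides of bacteria and mitochondria, rose by 0.97 ± 0.087 (adjusted p = 5.95e-05). H2-M3 had risen at 12 h too, by 0.73 (adjusted p = 0.00194). Among class I-like molecules outside the H2 complex, 2 of 3 detected genes rose at 48 h (25% of all probes), too few genes to set against that share. Fcgrt, the heavy chain of the neonatal Fc receptor, which also pairs with B2m, rose by 1.75 ± 0.099 (adjusted p = 7.23e-06). Hfe, an iron regulator that pairs with B2m, rose by 0.43 ± 0.088, while Cd1d1, which presents lipids, had 0.20 ± 0.11 and did not pass.

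Genes that supply and load peptides changed in both directions, as the whole array did, where 25% of probes rose at 48 h and 25.9% fell. Of 10 detected peptide supply genes at 48 h, 3 rose, 4 fell and 3 did not pass, with a median log2 fold change of 0.07. The immunoproteasome subunit Psmb8 rose by 0.41 ± 0.14 (adjusted p = 0.0407) and the proteasome activator Psme2 by 0.44 ± 0.093. Another immunoproteasome subunit, Psmb10, fell by 0.52 (adjusted p = 0.00132), and the peptidase Thop1, which degrades peptides in the cytosol, fell by 1.16 (adjusted p = 8.23e-05). Blmh fell by 0.58 and Psme3 by 0.52. Psmb9 and Erap1 were not detected on all arrays and were not tested. Of 6 detected chaperones of the loading complex and the endoplasmic reticulum, 1 rose at 48 h and 3 fell, with a median of -0.09, again over a background of 25% and 25.9%. Calr, the calreticulin that holds heavy chains in the loading complex, fell by 0.90 (adjusted p = 0.00824), and Pdia3, its partner disulfide isomerase, fell by 0.26 (adjusted p = 0.04). Hsp90b1 fell by 0.42 and Hspa5 rose by 0.36.

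Of 12 detected genes that are known to act on class I transcription, 5 rose at 48 h, 3 fell and 4 did not pass, with a median of -0.08, where 25% of all probes rose and 25.9% fell. Nlrc5, the class I transactivator, gave 1.31 ± 0.14 at 48 h (adjusted p = 0.000168) and 0.31 ± 0.14 at 12 h, which did not pass (adjusted p = 0.184). Irf1, an interferon regulatory factor, rose by 0.53 ± 0.10 (adjusted p = 0.0123) at 12 h, and at 48 h the rise was 0.93 ± 0.10 (adjusted p = 0.000165). Stat2, a mediator of type I interferon signalling, rose by 0.81 at 12 h and by 0.87 at 48 h (adjusted p = 0.00144 and 0.000127), and Irf8 rose by 0.41 at 48 h. The NF-Y subunits that bind CCAAT boxes went the other way at 48 h, Nfyc falling by 0.97 and Nfyb by 0.61, while Nfya had -0.10 and did not pass. At 12 h, 3 of the 12 rose, Stat2, Irf1 and Irf9 (8.73% of all probes), and none fell (7.82% of all probes). In the interferon signalling list of 11 genes, 4 were detected on no array and 7 on all. Of these 7, 3 rose at 48 h, the kinases Jak2 (0.90 ± 0.10), Tyk2 (0.55 ± 0.091) and Jak1 (0.41 ± 0.091). None fell at 48 h, where 25% of all probes rose and 25.9% fell. At 12 h, 1 of the 7 rose and 1 fell (8.73% and 7.82% of all probes).

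**Figure D5:**
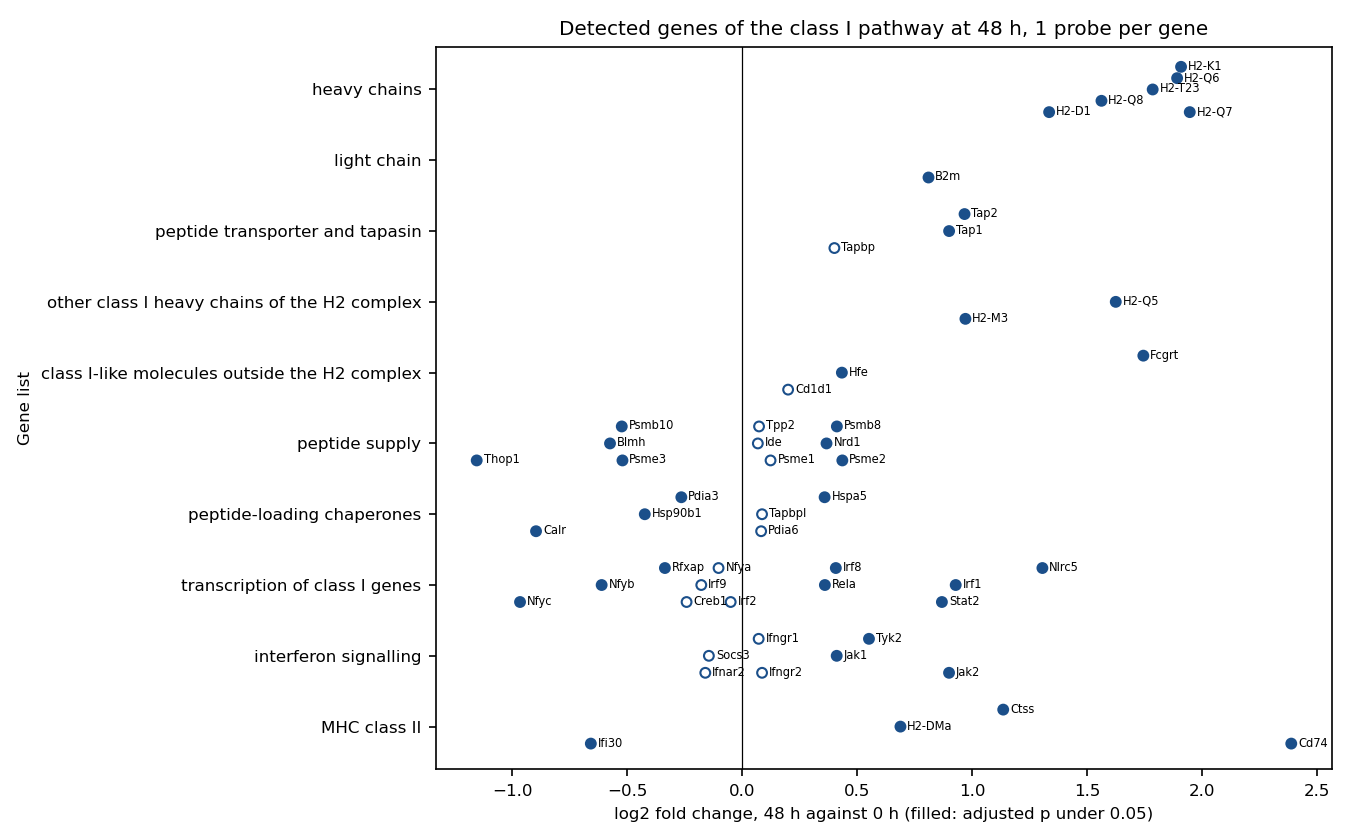
log2 fold change at 48 h against 0 h (x axis) of each detected gene of the class I pathway lists and of the MHC class II list (y axis), 1 probe per gene. Points are filled where the adjusted p was under 0.05. The genes of the MHC class II list span -0.66 (Ifi30) to 2.39 (Cd74). The 6 member heavy chains lie between 1.34 and 1.95, H2-M3 at 0.97, B2m, Tap1 and Tap2 between 0.81 and 0.97, and peptide supply genes and loading chaperones on both sides of 0.

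Profiles over the 6 arrays were compared by Euclidean distance of the centred log2 values, over 8086 named genes outside the lists. Nearest to the mean heavy chain profile were Lamp2, a lysosomal membrane protein, at a distance of 0.14, Ugt1a10 at 0.15, P2rx4, an ATP-gated channel, at 0.22, and Prune2, Ago2 and Tnfaip8l2 at 0.23 to 0.25. Lamp2 rose by 1.69 at 48 h and had 0.39 at 12 h. Nearest to B2m were Fez2 at 0.058 and Rabgap1 at 0.077, then Ubxn6, Nfkbie, Cd83 and Tank at up to 0.11. The member heavy chain probes themselves lay at 0.16 (H2-T23) to 0.89 (H2-K1) from their own mean profile, and these likenesses describe 6 arrays only.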

How the data were processed

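The arrays measured RNA of MFP-treated macrophages, 2 arrays for each of 3 time points. The authors deposited 1 signal intensity per probe and array, as the scanner software gave it and with no log or normalization step. A detection p-value, deposited by the authors for each intensity, sets it against negative control beads. The authors also deposited quantile-normalized log2 values, and their processing notes give R 3.0.2. These values shared 1 distribution within each of 2 sets of 3 arrays (medians 6.83 and 6.73), from which separate normalization of the sets was inferred.

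Following the study's methods, probes detected everywhere (p under 0.05 on each of 6 arrays) were taken from the intensity table, and their log2 signals were quantile normalized. No background was subtracted, which narrows the changes of dim probes. Time point means were compared with limma 3.58.1 (R 4.3.3) over 14091 probes (3 residual and 4.9 prior degrees of freedom), with Benjamini-Hochberg adjustment. For comparisons within an array, the log2 signal of 1 probe was subtracted and all others refitted. The prior degrees of freedom were estimated anew in each such fit, and those given above are of the main fit only. The number of arrays limits the precision. The code was tested on simulated data.

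Gene names came from the platform annotation. Every member probe was named. Of the other lists, the genes named are up to 6 per list with the largest change among those that passed at 48 h, and a few regulators and proteasome genes whatever their values, each read on the probe of highest mean. Irf9, Nfya and Cd1d1 were named after their values were seen. Members and lists were chosen with earlier results of these data known. Other settings were the detection filter, normexp background correction (offset 16), scaling to the 75th percentile, the deposited log2 table, blocks for replicate number and array set, leaving out each array, the methods' t-test, a 2-fold rule, 1 probe per gene and the other B2m probe. Tap1 and Tap2 as references were added after seeing the data. Promoter sequences are from RefSeq. Motif letters were chosen with the members' promoters in view, and those of the κB motif were shortened by 1 base after the matches of a longer form, which fewer promoters held, had been counted.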

Additional observations from a re-analysis of the deposited data

Results flagged for a closer look

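Of 26 probes of class I and class I-like genes that were left out because they were not detected on every array, 2 were above the background on both 48 h arrays, on neither 0 h array, and higher at 48 h without overlap. Probe ILMN_2634603 of H2-K1 had signals of 142 and 175 at 48 h and of 122 and 118 at 0 h. Its log2 fold change at 48 h against 0 h, fitted without the detection filter, was 0.52 ± 0.093 (SE). Probe ILMN_2504374 of Mr1, a class I-like molecule that presents vitamin B metabolites, had signals of 125 and 141 at 48 h and of 123 and 118 at 0 h. Its log2 fold change was 0.25 ± 0.095 (SE). These probes were picked for being higher at 48 h, so the values are a description without a test. Its signal at 12 h, 107 and 142, spanned the values of both other time points.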

How the results depend on the processing

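At 48 h against 0 h no alternative turned the direction of a member probe, and at 12 h the direction turned only on probes that had not passed. The count at 48 h (20 of 21) was 13 on the deposited normalized table (21 with the array set as a block), 7 by the methods' t-test after Benjamini-Hochberg, 9 of 10 with 1 probe per gene, and 18 to 20 with 1 array left out. The count at 12 h (3 of 21) was 1 with scaling to the 75th percentile, 0 on the deposited table (14 with the array set as a block), 13 with the array set as a block on the main values, 0 by the 2-fold rule, 7 by the methods' t-test unadjusted and 0 after Benjamini-Hochberg, and 1 to 5 with 1 array left out. The count for 48 h against 12 h (19 of 21) was 5 on the deposited table (19 with the array set as a block), 12 by the 2-fold rule and 19 without any 1 array. Heavy chain probes above B2m at 48 h (13 of 15) were 7 by the 2-fold rule, and 11 to 14 with 1 array left out. The fold changes on the deposited table were the same with and without the block (medians of the heavy chain probes 1.79 at 48 h against 0 h and 1.30 at 48 h against 12 h), and its lower counts were those of the fit without the block.

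The 12 h values that changed sign with 1 array left out ranged from -0.11 (without 0 h replicate 1) to 0.15 for ILMN_2588139 of H2-K1, from -0.10 to 0.26 for ILMN_2462745 of H2-D1, from -0.38 to 0.55 for ILMN_2951592 of H2-Q8, from -0.12 to 0.24 for ILMN_2739999 of B2m and from -0.018 to 0.36 for ILMN_1226819 of Tapbp, the last 4 lowest without 12 h replicate 1. The H2-K1 probe was also at -0.029 with scaling to the 75th percentile. Same-numbered arrays deviated oppositely at 0 h against 12 h and 48 h (r = -0.553 and -0.564 over probes) and together at 12 h and 48 h (0.648). With 2 arrays per time point, these signs show only which arrays deviated together. Whether the numbers pair cultures is not given in the sources used here and was not tested. With the replicate number as a block the counts were 2 at 12 h, 20 at 48 h, 19 for 48 h against 12 h and 13 relative to B2m. The arrays that deviated together were those of the same array set. Since no background was subtracted, changes of probes near background are understated, and 2 arrays per time point limit what could pass.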

Other observations

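MHC class II genes, whose products present peptides of ingested material to CD4 T cells, were detected in part: 4 of 14 listed genes on all 6 arrays. None of the 4 encodes a chain that presents peptides. At 48 h, 3 of them rose and 1 fell, where 25% of all probes rose and 25.9% fell. Cd74, the invariant chain, rose by 0.72 ± 0.10 at 12 h (limma, adjusted p = 0.00414). At 48 h its rise was 2.39 ± 0.10 (adjusted p = 2.1e-06). Ctss, the protease that trims the invariant chain, rose by 1.14 ± 0.15 at 48 h (adjusted p = 0.000547), and H2-DMa, a subunit of the peptide exchange factor, rose by 0.69 ± 0.11 (adjusted p = 0.00132). Ifi30, a thiol reductase of the endocytic pathway, fell by 0.66 at 48 h (adjusted p = 0.00548). Of the other 10 genes, 7 were detected on no array, among them the presenting chains H2-Aa, H2-Ab1 and H2-Ea. H2-Eb1 was detected on 2 arrays and H2-Eb2 on 4.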
